A study of Mus musculus with 12 samples.

Results

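Aquaporins are membrane channels that let water cross cell membranes, and a subgroup of them, the aquaglyceroporins, also passes glycerol and urea. In the male tract they are known from germ cells, which lose most of their cytoplasm as spermatids elongate, and from the epididymal epithelium, which adjusts the fluid around stored sperm. Glycerol that enters through such a channel is phosphorylated by glycerol kinase before it can feed energy metabolism. The genes described here were 8 mouse aquaporins, Aqp1, Aqp3, Aqp4, Aqp5, Aqp7, Aqp8, Aqp9 and Aqp11, each found by its symbol in both count tables, among 51826 entries of the sperm table and 23502 entries of the testis table. This set was chosen from results of both comparisons below, Aqp9 among them, so the fold changes of its members are given as descriptions without p-values, and the counts of called members support nothing. The other gene lists used below were also chosen with earlier results of these data known. Their counts of called genes, and the p-values of genes named from them, are likewise descriptions only.

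The study asked how Xap5 (gene symbol Fam50a) and its paralogue Xap5l (Fam50b) act in spermatogenesis, and it sequenced poly(A) RNA from 12 libraries in 4 groups of 3. Sperm from the cauda epididymis of P56 males came from Xap5l KO mice, a global knockout made with CRISPR/Cas9 on the C57BL/6J background, and from WT mice. Whole testes of P16 males came from Xap5 cKO mice, in which a floxed Xap5 allele of C57BL/6J background was removed by a Stra8-GFPCre knockin allele active in germ cells, and from mice labelled WT, while the paper names Xap5fl/Y males as controls of the conditional line. The sperm libraries held 38881197 to 52308452 counts and the testis libraries 32251198 to 36759054 counts. Levels are given below as CPM, the count divided by the TMM-scaled total of counts in tested genes, and 1 count in a library was worth 0.0172 to 0.0303 CPM in sperm and 0.0274 to 0.0311 CPM in testes. The labels number the replicates without saying whether each came from a separate animal, so that p-values measure the spread between these libraries only.

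The targeted genes were lower in both mutants, clearly for Fam50b and by a small amount for Fam50a. Fam50b counts in sperm were 574, 440 and 419 for WT against 18, 23 and 8 for Xap5l KO, lower in all 3 KO libraries, with a log2 fold change of -5.15 ± 0.47 (SE) and an adjusted p of 0.0118 in edgeR's quasi-likelihood test. Fam50a, which is intact in these mice, had 16.6, 16.8 and 14.9 CPM against 8.45, 8.79 and 11.1 CPM there (-0.76 ± 0.20, SE, edgeR adjusted p of 0.0393). The adjusted p of Fam50a passed in only 1 of the 6 sperm fits with a library left out, and neither without a filter on low counts (0.0788) nor with library size alone (0.193), while the log2 fold change was below 0 in each. In testes Fam50a counts were 819, 811 and 988 for WT against 673, 616 and 651 for Xap5 cKO, whose somatic cells keep the gene (-0.33 ± 0.13, SE, edgeR adjusted p of 0.0495), a difference below 0 in every fit that likewise passed in only 1 of the 6 fits with a library left out. The groups did not overlap for either gene in either table, and in the same testes Fam50b went from 532, 539 and 197 counts to 6, 0 and 7 (-6.48 ± 0.69, SE, edgeR adjusted p of 8.09e-05).

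Among the aquaporins the clearest contrast in the testes was that of Aqp9, which was read in every WT library and was at 0 in 2 of the 3 Xap5 cKO libraries, while Aqp5 was higher and Aqp11 lower in all 3 cKO libraries than in any WT library. In sperm, Aqp7 was higher in all 3 Xap5l KO libraries than in any WT library, and the levels of Aqp9 and Aqp11 overlapped between genotypes. A gene was called where edgeR gave an adjusted p under 0.05 over all genes tested and a fold change above 2. In testes 2 of the 5 members tested were called, 1 lower (Aqp9) and 1 higher (Aqp5), where 15.1% of 16821 tested genes were called, 10.9% lower and 4.15% higher. By the adjusted p alone 3 of these 5 passed (Aqp5, Aqp9 and Aqp11), where 53.1% of all tested genes did. In sperm 1 of the 6 members tested, Aqp7, was called, and it was higher. Of 20945 tested genes there 8.86% were called, 7.59% higher and 1.27% lower. The same single member passed by the adjusted p alone, where 12.1% of all tested genes did. An unadjusted p under 0.05, counted below for some lists, was found in edgeR for 7016 of the 20945 genes in sperm and 9823 of the 16821 in testes. The filter on low counts kept 6 members in sperm, without Aqp4 and Aqp5, and 5 in testes, without Aqp3, Aqp4 and Aqp7. The median log2 fold change was 0.30 over the 6 members tested in sperm against -0.08 over all tested genes, and -0.41 over the 5 tested in testes against -0.01 over all.

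The sperm calls rested on few libraries. The 1856 genes called in sperm became 2 without WT replicate 2, 2 without WT replicate 3, 3 when KO replicate 2 was left out and 554 when KO replicate 1 was, whereas leaving out WT replicate 1 gave 2261 and leaving out KO replicate 3 gave 2845. The call of Aqp7 was lost in the first 4 of these fits. In testes the number of genes called ranged from 2246 to 2839 when a library was left out.

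Aqp9 is an aquaglyceroporin known from hepatocytes, where it takes up glycerol, and from the principal cells of the epididymis. The gene lies at chr9:71110659-71168682 on the minus strand (GRCm38). In WT testes it had 462, 449 and 202 counts, or 13.8, 12.3 and 5.61 CPM. In Xap5 cKO testes it had 0, 12 and 0 counts, or 0, 0.352 and 0 CPM. The lowest WT library thus held more than 10 times the counts of the highest cKO library, and the WT libraries themselves were uneven, with replicate 3 below the other WT libraries. The means were 10.6 ± 4.35 CPM in WT and 0.117 ± 0.203 CPM in cKO (SD, n = 3), and the fitted log2 fold change was -6.41 ± 0.84 (SE). A count of 0 in these libraries allowed up to 3 counts, or 0.0933 CPM in cKO replicate 1 and 0.0911 CPM in cKO replicate 3, and with both libraries set there the WT mean was 59.1-fold the cKO mean. Such limits cover counting error only. In bulk testes, fewer cells of a type and less RNA per cell cannot be told apart. The paper reports that Xap5 cKO testes of P16 and older lacked pachytene spermatocytes and had many vacuolated tubules. The part of this loss in the level of Aqp9 was not tested. The log2 fold change lay between -5.85 and -6.72 when any library but cKO replicate 2 was left out, and without that library, the only cKO library with reads of Aqp9, the cKO group was at 0.

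In sperm Aqp9 had 1706, 2860 and 2726 counts in WT, or 51.8, 68.0 and 58.8 CPM. The Xap5l KO libraries had 1593, 2848 and 3263 counts, or 45.5, 51.4 and 56.0 CPM. The groups overlapped, with means of 59.5 ± 8.13 and 51.0 ± 5.27 CPM (SD, n = 3) and a log2 fold change of -0.22 ± 0.20 (SE), and Aqp9 was not called.

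Aqp7, the aquaglyceroporin through which adipocytes release glycerol, is also known from spermatids and the sperm tail, and lies at chr4:41033074-41048139 on the minus strand. The WT sperm libraries had 745, 761 and 759 counts, or 22.6, 18.1 and 16.4 CPM. The Xap5l KO sperm libraries had 1700, 2305 and 1990 counts, or 48.5, 41.6 and 34.2 CPM. All 3 KO libraries lay above all 3 WT libraries, with means of 41.4 ± 7.20 against 19.0 ± 3.22 CPM (SD, n = 3). The log2 fold change was 1.12 ± 0.22 (SE), and it ranged from 0.99 to 1.32 when a library was left out, although the call was lost without WT replicate 2 or 3 or without Xap5l KO replicate 1 or 2. In testes Aqp7 was near its detection limit, with counts of 2, 8 and 2 for WT against 0, 8 and 12 for the cKO, and was not tested. Aqp3, the aquaglyceroporin of skin and kidney collecting duct, ranged in sperm from 4 to 13 counts for WT against 8 to 19 for the KO, with overlapping groups, and was at 0 in all 6 testis libraries, which at 3 counts allowed up to 0.0823 to 0.0933 CPM.

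**Figure D1:**
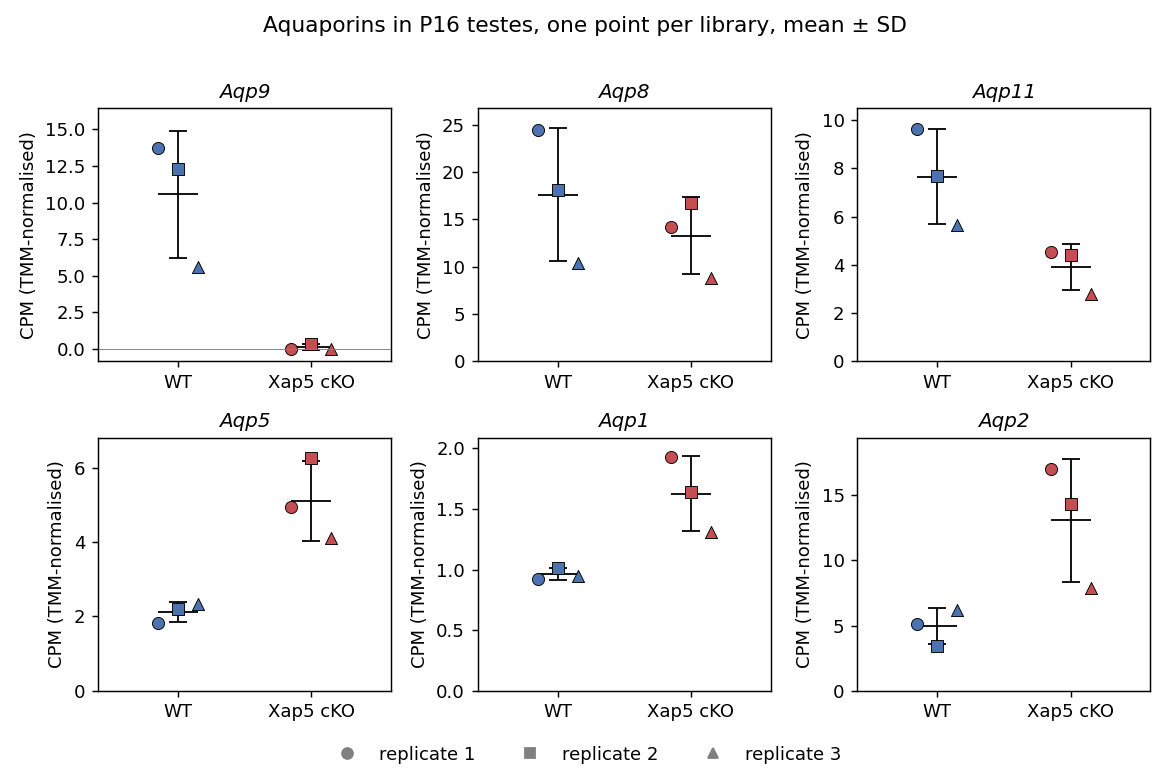
Levels of 5 aquaporins of the set and of Aqp2 in the 6 testis libraries, in CPM after TMM scaling, with each library as a point shaped by replicate number and each group's mean and SD as bars. Aqp9 was at 13.8, 12.3 and 5.61 CPM in WT and at 0, 0.352 and 0 CPM in Xap5 cKO, while the Aqp5, Aqp1 and Aqp2 points of the cKO lay above those of WT.

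Aqp8 passes water, ammonia and hydrogen peroxide and is known from the testis. It was the most abundant member in testes, with 820, 660 and 372 counts in WT, or 24.4, 18.1 and 10.3 CPM. Xap5 cKO testes had 457, 571 and 290 counts, or 14.2, 16.8 and 8.81 CPM. The groups overlapped, replicate 3 was the lowest library in each of them, and the log2 fold change was -0.41 ± 0.32 (SE), which moved to -0.68 without WT replicate 3 and to -0.10 without WT replicate 1. In sperm Aqp8 had 14 to 21 counts in WT and 14 to 36 in Xap5l KO.

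Among the water-selective members Aqp5, the channel of salivary and other secretory glands, lies at chr15:99590782-99594829 on the plus strand. It had 61, 80 and 84 counts in WT testes, or 1.82, 2.20 and 2.34 CPM. It had 159, 213 and 135 counts in Xap5 cKO testes, or 4.94, 6.25 and 4.10 CPM. Every cKO library was above every WT library, and the log2 fold change was 1.27 ± 0.26 (SE), between 1.10 and 1.40 when a library was left out. In sperm it was close to absent, with 2 counts in WT replicate 3, 8 in Xap5l KO replicate 2 and 0 in the other 4 libraries.

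Aqp1, the water channel of red cells, capillary endothelium and efferent ducts, was counted 31, 37 and 34 times in WT testes against 62, 56 and 43 times in the cKO, or means of 0.961 ± 0.0481 and 1.63 ± 0.311 CPM (SD, n = 3). The groups did not overlap, but the log2 fold change of 0.76 ± 0.37 (SE) did not pass the test. In sperm it had 6 to 13 counts in WT and 9 to 21 in Xap5l KO, with overlapping groups. Aqp4, the water channel of astrocytes, was read 2, 0 and 3 times in WT sperm, 12, 3 and 10 times in KO sperm, and 2 times in a single testis library, and was tested in neither table.

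Aqp11 is an intracellular member with an unusual pore motif, known from the endoplasmic reticulum, and lies at chr7:97724006-97738289 on the minus strand. In sperm it was the most abundant member by counts, with 36760, 24364 and 29474 in WT, or 1115, 579 and 636 CPM. Xap5l KO sperm had 33527, 40330 and 79579 counts, or 957, 728 and 1366 CPM. The groups overlapped, with WT replicate 1 and Xap5l KO replicates 1 and 3 above the other libraries, and the log2 fold change was 0.39 ± 0.36 (SE), between 0.20 and 0.73 when a library was left out.

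In WT testes Aqp11 had 324, 280 and 204 counts, or 9.65, 7.68 and 5.67 CPM. Xap5 cKO testes had 146, 150 and 92 counts, or 4.54, 4.40 and 2.79 CPM. All cKO libraries were below all WT libraries. The log2 fold change of -0.97 ± 0.28 (SE) passed by the adjusted p but not by the fold threshold, and Aqp11 was called without WT replicate 3 (-1.15), without Xap5 cKO replicate 1 (-1.08) or without Xap5 cKO replicate 2 (-1.053).

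**Figure D2:**
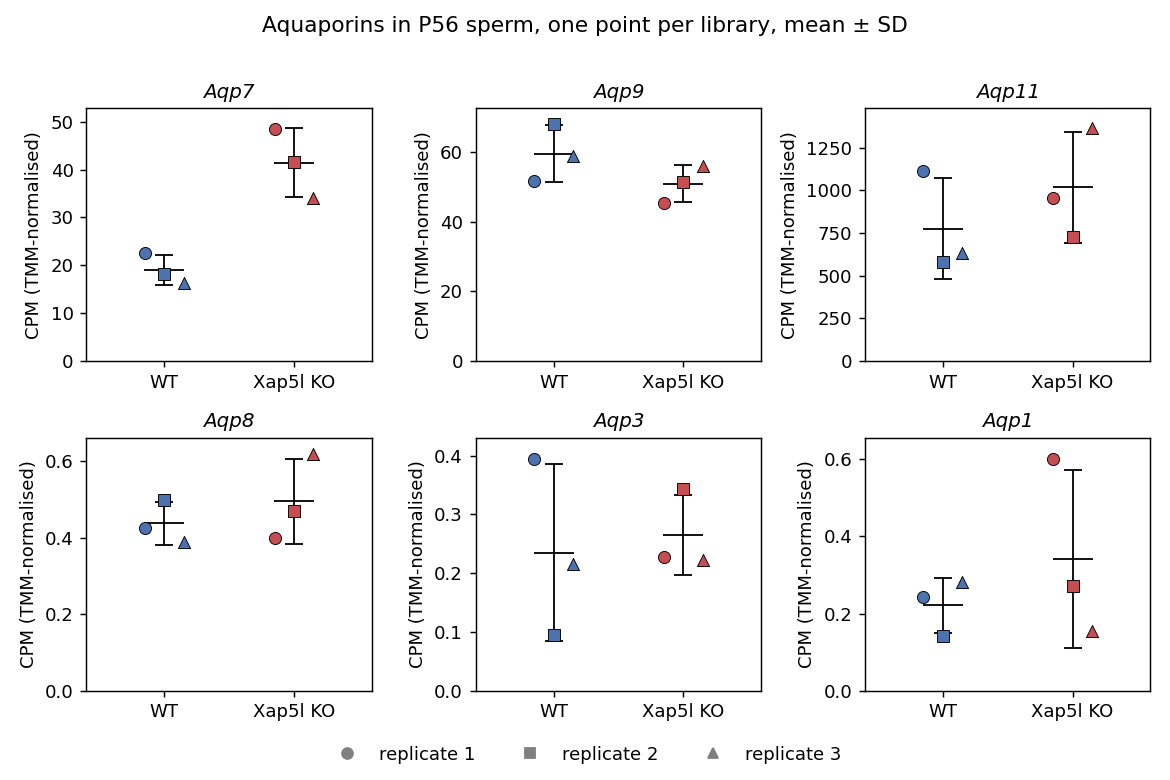
Levels of the 6 aquaporins tested in sperm, in CPM after TMM scaling, with each of the 6 libraries as a point shaped by replicate number and each group's mean and SD as bars. Aqp7 was at 16.4 to 22.6 CPM in WT and 34.2 to 48.5 CPM in Xap5l KO, and the points of the other 5 genes overlapped between genotypes.

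Levels of different genes were compared per kilobase of merged exons in the GENCODE vM21 annotation. In WT sperm Aqp11 led with 82.5 ± 31.3 CPM per kb (SD, n = 3), followed by Aqp9 with 14.4 ± 1.96 and Aqp7 with 6.73 ± 1.14. Aqp8 with 0.277 ± 0.0357 CPM per kb, Aqp3 with 0.129 ± 0.0823 and Aqp1 with 0.0845 ± 0.0271 were far below, and Aqp3 and Aqp1 were within their spread of each other. Aqp4 and Aqp5 came last. In Xap5l KO sperm Aqp11 (108 ± 34.3 CPM per kb) was again first, but Aqp7 (14.7 ± 2.55) and Aqp9 (12.3 ± 1.27) no longer differed beyond their spread. In WT testes the order among the 8 members was Aqp8 with 11.1 ± 4.46 CPM per kb, Aqp9 with 2.55 ± 1.049, then Aqp5 (0.814 ± 0.103) and Aqp11 (0.814 ± 0.211) at the same level, Aqp1 with 0.366 ± 0.0183 and Aqp7 with 0.0394 ± 0.0331. In Xap5 cKO testes Aqp8 (8.39 ± 2.57 CPM per kb) stayed first of the members and Aqp5 (1.96 ± 0.417) was second of them, above Aqp1 (0.619 ± 0.118), Aqp11 (0.415 ± 0.103), Aqp7 (0.0706 ± 0.0653) and Aqp9 (0.0283 ± 0.0491), the last of which did not differ beyond their spread. Outside the set, Aqp2 stood at 3.48 ± 0.984 CPM per kb in WT testes and 9.21 ± 3.31 in cKO testes, within the spread of Aqp9 and of Aqp8 there.

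**Figure D3:**
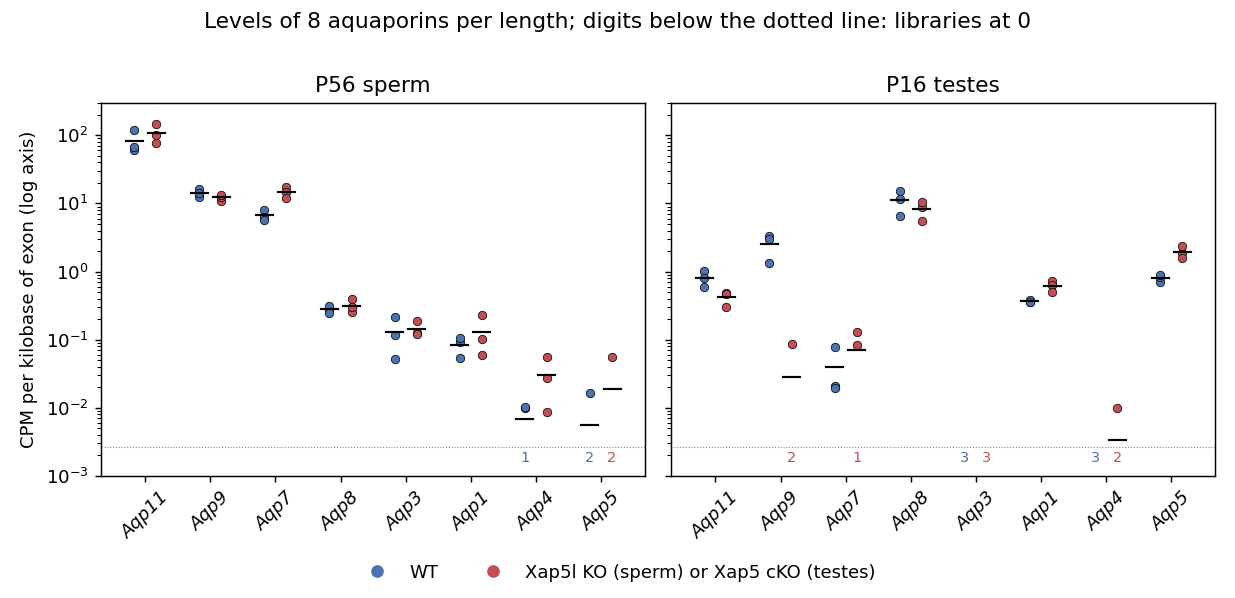
Levels of the 8 aquaporins in CPM per kilobase of exon on a log axis, with a point per library and a line at each group's mean, and with the number of libraries at 0 below the dotted line. Aqp11 was the highest in sperm (82.5 CPM per kb in WT) and Aqp8 in testes (11.1 CPM per kb in WT).

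The other mouse aquaporins were listed in both tables. Aqp2, the vasopressin-regulated channel of the kidney collecting duct, had 173, 126 and 224 counts in WT testes, or 5.15, 3.46 and 6.23 CPM. It had 547, 489 and 259 counts in Xap5 cKO testes, or 17.0, 14.3 and 7.87 CPM. All 3 cKO libraries were above all 3 WT libraries, and Aqp2 was called with a log2 fold change of 1.40 ± 0.32 (SE) and an adjusted p of 0.00512 in edgeR's test. Aqp2 and Aqp5 are neighbours on chr15, with Aqp2 at chr15:99579055-99584547 and Aqp6 on the other side of Aqp5 at chr15:99601400-99605477. Aqp6, an intracellular channel of the kidney, had 8 counts in WT testis replicate 3, 11 in Xap5 cKO replicate 2 and 0 elsewhere. Aqp12, known from pancreatic acinar cells, and the lens channel Mip were tested in testes and were not called. In sperm 0 of the 4 were tested, Aqp6 and Mip were at 0 in all 6 libraries, Aqp2 had at most 5 counts, and Aqp12 was read 4, 3 and 0 times in WT but never in the KO.

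The glycerol kinase genes Gk2 and Gykl1 were called higher in Xap5l KO sperm and lower in Xap5 cKO testes, comparisons that share no libraries. The other glycerol kinase genes of the list, Gk and Gk5, named after their values were seen, did not show both of these changes. Gk was not called in either table (-0.72 ± 0.31 in sperm and -0.95 ± 0.21 in testes, SE, edgeR adjusted p of 0.135 and 0.00463), nor was Gk5 (-0.34 ± 0.28 and 0.62 ± 0.08, edgeR adjusted p of 0.405 and 0.000194). In the glycerol metabolism list as a whole, in Xap5l KO sperm 3 of 10 were called higher (Gk2, Gykl1 and Lipe) and 0 lower, where 7.59% of all genes were called higher, and in Xap5 cKO testes 3 of 10 were called lower (Gk2, Gykl1 and Mgll) and 0 higher, where 10.9% of all genes were called lower. By the adjusted p alone 4 of the 10 passed higher and 4 lower in testes, where 53.1% of all genes passed. Lipe did not pass in testes (0.01 ± 0.14, SE, edgeR adjusted p of 0.98), and Mgll did not pass in sperm (-0.57 ± 0.22, SE, edgeR adjusted p of 0.101). Over the list the log2 fold change had a median of 0.09 in sperm and -0.21 in testes, against -0.08 and -0.01 over all genes tested. Gk2, a glycerol kinase of the testis, went from 49.2, 41.0 and 35.1 CPM in WT sperm to 122, 139 and 99.4 CPM in the KO, with a log2 fold change of 1.52 ± 0.23 (SE) and an adjusted p of 0.0122 in edgeR's test. In WT testes it had 1741, 1544 and 620 counts against 17, 3 and 22 in Xap5 cKO, a log2 fold change of -6.44 ± 0.58 (SE) with an edgeR adjusted p of 3.8e-05. All KO libraries lay on the same side of WT in each comparison.

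Gykl1, a related glycerol kinase gene, went from 56.1, 43.0 and 35.1 CPM in WT sperm to 96.5, 112 and 96.8 CPM in the KO (log2 fold change 1.18 ± 0.23, SE, edgeR adjusted p of 0.0179). In testes its counts were 724, 563 and 248 for WT against 0, 0 and 2 for the cKO. Lipe, the hormone-sensitive lipase that frees fatty acids from acylglycerols, and Mgll, the lipase that yields glycerol from monoacylglycerol, are named because they complete the counts, after their values were seen. Mean levels were 447 CPM against 970 CPM for Lipe in WT and KO sperm, and 50.1 CPM against 12.4 CPM for Mgll in WT and cKO testes. Like that of Aqp7, the sperm calls of Gk2 and Gykl1 were lost without WT replicate 2 or 3 or KO replicate 2, and that of Gykl1 also without KO replicate 1.

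Of 16 cell volume channels and cotransporters, 2 were called higher in Xap5l KO sperm and 0 lower, where 7.59% of all genes were called higher. In Xap5 cKO testes edgeR and DESeq2 called 0 of the 15 tested, 10 had an unadjusted p under 0.05 in edgeR (9823 of all 16821 genes), and 7 passed higher and 1 lower by the adjusted p alone, where 53.1% of all genes passed. The called pair were Kcnu1, the pore of the sperm-specific potassium channel Slo3, and Lrrc52, its auxiliary subunit. Kcnu1 had means of 9.23 CPM in WT sperm against 27.0 CPM in the KO, with a log2 fold change of 1.55 ± 0.26 (SE) and an edgeR adjusted p of 0.0139. Lrrc52 had 4.79, 3.42 and 3.41 CPM in WT and 17.7, 14.8 and 5.59 CPM in KO, with a log2 fold change of 1.71 ± 0.39 (SE) and an edgeR adjusted p of 0.026. Replicate 3 was the lowest KO library for both, all KO libraries were above all WT libraries, and both calls were lost without WT replicate 2 or 3 or KO replicate 2. Medians of log2 fold change were 0.02 over the 16 genes tested in sperm and 0.34 over the 15 tested in testes. Lrrc8b, a subunit of the volume-regulated anion channel singled out after its values were seen, was the most abundant gene of the list in sperm. Its levels were 4308, 1932 and 2125 CPM in WT against 3368, 2564 and 4551 CPM in the KO (0.33 ± 0.41, SE, edgeR adjusted p of 0.598), and its high libraries, WT replicate 1 and KO replicates 1 and 3, were those of Aqp11.

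Of 7 genes for organic osmolytes and urea, 0 were called in sperm by edgeR or DESeq2, and 0 had an unadjusted edgeR p under 0.05 (7016 of all 20945 genes). The most abundant there, the taurine transporter Slc6a6, averaged 112 CPM in WT against 86.1 CPM in the KO (-0.38 ± 0.23, SE, edgeR adjusted p of 0.268). In testes 1 was called lower (Slc14a2, a urea transporter below 1 CPM, named after its values were seen, with counts of 31, 34 and 16 for WT against 2, 0 and 0 for the cKO), where 10.9% of all genes were called lower, and 3 of the 5 tested passed higher by the adjusted p alone, where 53.1% of all genes passed in either direction. The median log2 fold change was -0.01 over the 7 tested in sperm and 0.23 over the 5 tested in testes. Akr1b3, the aldose reductase that makes sorbitol and the most abundant of the list in testes, averaged 465 CPM in WT against 608 CPM in the cKO (0.39 ± 0.05, SE, edgeR adjusted p of 0.000187).

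Of 10 genes for fluid transport in the ducts, only the chloride channel Cftr was called, higher in Xap5l KO sperm and lower in Xap5 cKO testes, where 7.59% of all genes were called higher in the former and 10.9% lower in the latter. It had 4.16, 2.35 and 2.87 CPM in WT sperm and 11.7, 9.86 and 8.96 CPM in KO sperm, a log2 fold change of 1.70 ± 0.26 (SE) with an edgeR adjusted p of 0.0125. In testes it had 16.3, 16.9 and 13.7 CPM in WT and 5.35, 7.69 and 5.16 CPM in cKO, a log2 fold change of -1.36 ± 0.20 (SE) with an edgeR adjusted p of 0.000486. The groups did not overlap in either table, and the sperm call was lost without WT replicate 2 or 3 or KO replicate 2. The log2 fold change had a median of -0.17 over the 10 genes tested in sperm and 0.38 over the 8 tested in testes.

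The sperm libraries held RNA of sperm and of other cells. All 6 listed markers of elongating spermatids were read, and their summed level was 47610, 22960 and 23180 CPM in WT and 38460, 24700 and 45100 CPM in KO. WT replicate 1 and KO replicates 1 and 3 were thus high for these markers as they were for Aqp11, and 1 of the 6 markers, Akap4, was called higher and 0 lower (median log2 fold change 0.60), where 7.59% of all genes in sperm were called higher and 1.27% lower, shares that apply to the next 2 lists as well. The most abundant of them was Odf1, of the sperm tail, in WT (means of 17960 CPM in WT and 11110 CPM in KO, log2 fold change -0.69 ± 0.54, SE, edgeR adjusted p of 0.382) and the protamine gene Prm2 in KO (10180 and 19820 CPM, 0.96 ± 0.43, SE, edgeR adjusted p of 0.151). Akap4 and Odf1 are named after their values were seen. Of the 7 round spermatid markers 6 were called higher in KO and 0 lower (median 1.43), with sums of 772, 470 and 497 CPM in WT and 1132, 926 and 936 CPM in KO. Their most abundant gene, the kinase gene Tssk2, had means of 495 and 760 CPM and was not called. Of the 8 pachytene markers 5 were called higher (Hspa2, Ldhc, Spag6, Adam3 and Mael, named after their values were seen) and 0 lower, with sums of 2375, 1580 and 1444 CPM in WT and 2911, 3084 and 3513 CPM in KO, and the most abundant was Pgk2. The median was 1.13, and Piwil1, named after its values were seen, went the other way, from 15.2 to 7.76 CPM (-0.97 ± 0.37, SE, edgeR adjusted p of 0.104). All 3 KO libraries were above all 3 WT libraries for both lists, as for Aqp7. The part of these cells in the level of Aqp7 or Aqp11 was not tested.

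Markers of the epididymal principal cells, a known site of Aqp9, were abundant in the same sperm libraries. Their summed level was 10090, 13020 and 11850 CPM in WT and 8541, 7047 and 9007 CPM in Xap5l KO, against 51.8, 68.0 and 58.8 CPM and 45.5, 51.4 and 56.0 CPM for Aqp9. The marker sums of all 3 KO libraries were below those of all 3 WT libraries, whereas Aqp9 overlapped. Taken singly, the groups overlapped for Crisp1, Ces5a and Spink8 as well, but not for Cd52 and Rnase10. Apart from Crisp1, these markers are named here after their values were seen. In WT the sum and Aqp9 were both lowest in replicate 1 and highest in replicate 2. KO replicate 2 was the lowest KO library for the sum but not for Aqp9. Crisp1, the most abundant of the 8 markers, had means of 6199 and 4580 CPM, while Lcn9 was at 0 in all 6 libraries, Lcn5 had 2 counts in a single library and Lcn8 had 2 to 15 counts. With 5 markers tested, 0 were called by edgeR or DESeq2, with 1 at an unadjusted edgeR p under 0.05 (7016 of all 20945 genes), and all 5 had a log2 fold change below 0 (median -0.49). Among the basal and clear cell markers, whose sum was 110 to 135 CPM in WT and 82.0 to 101 CPM in KO, Foxi1 was the most abundant, and 0 of 7 were called by edgeR or DESeq2, with 2 at an unadjusted edgeR p under 0.05 (7016 of all 20945 genes). While the sum was lower in KO, 4 of the 7 genes had a log2 fold change above 0, and the median was 0.35. In testes Crisp1, Lcn5, Lcn8, Lcn9, Ces5a and Foxi1 were at 0 in all 6 libraries. How much of the Aqp9 RNA of the sperm libraries came from epididymal cells was not tested.

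Markers of erythroid cells and of neutrophils and macrophages were also present in the sperm libraries. The erythroid sum was 22840, 4506 and 6966 CPM in WT and 5550, 1644 and 3752 CPM in Xap5l KO, led by Hbb-bs, and the sum for neutrophils and macrophages was 717, 672 and 730 CPM in WT and 122, 311 and 441 CPM in KO, led by Lyz2. Of the markers tested, 0 of 7 erythroid genes and 1 of 7 neutrophil and macrophage genes were called, the latter S100a9, lower and named after its values were seen, where 1.27% of all genes were called lower. DESeq2 called 0 and 2, and 4 and 5 had an unadjusted edgeR p under 0.05, as 7016 of all 20945 genes did. The median log2 fold changes were -1.5 and -0.87. Of the 7 neutrophil and macrophage genes 6 were lower and 1 was higher, S100a8, named after its values were seen. Its means were 3.48 CPM in WT and 4.82 CPM in KO (0.48 ± 0.42, SE, edgeR adjusted p of 0.444). Aqp1, known from red cells, stood at 0.143 to 0.281 CPM in these WT libraries, and the part of red cells in its level was not tested. Sums of the endothelial, Sertoli, Leydig, peritubular and spermatogonial lists, led by Pecam1 in WT and Vwf in KO for the endothelial list and by Sox9, Insl3, Acta2 and Kit for the others, were each below 34 CPM in every sperm library, and edgeR called 1 gene of these lists (Cldn11, lower, with means of 2.13 and 0.742 CPM), where 1.27% of all genes were called lower, while DESeq2 called a Leydig gene as well (Cyp11a1, lower). Pecam1, Cldn11 and Cyp11a1 are named after their values were seen.

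In the testes, the 8 pachytene markers had summed levels of 2328, 2211 and 1234 CPM in WT and 283, 306 and 385 CPM in Xap5 cKO, and 6 were called lower and 0 higher, with a median log2 fold change of -3.59, where 10.9% of all genes were called lower. Hspa2, the most abundant of them, had 639, 645 and 382 CPM in WT and 113, 112 and 171 CPM in cKO. WT replicate 3 was the lowest WT library for these markers, as it was for Aqp9, Aqp8 and Aqp11. Spermatogonial markers summed to 1437, 1447 and 1595 CPM in WT and 875, 921 and 906 CPM in cKO, with 0 of 6 called by edgeR or DESeq2 and all 6 at an unadjusted edgeR p under 0.05, as were 9823 of all 16821 genes. By the adjusted p alone, which 53.1% of all genes passed, 5 were lower and 1 higher (Gfra1, named after its values were seen, 9.44 CPM in WT and 13.9 CPM in cKO), and Dazl, the most abundant, went from a mean of 891 to 457 CPM. Round spermatid markers summed to 7.50 to 12.7 CPM over the 6 libraries, led by Spaca1, and elongating spermatid markers to 0.357 to 0.768 CPM, with Prm2 at 0, Akap4 the most abundant in WT and Odf1 in cKO, so that the P16 testes held almost no RNA of late spermatids.

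Many but not all somatic markers were higher in the Xap5 cKO testes, where 4.15% of all genes were called higher and 53.1% passed by the adjusted p alone in either direction. Sertoli markers summed to 874, 937 and 992 CPM in WT and 1502, 1510 and 1573 CPM in cKO, with 5 of 6 passing higher by the adjusted p alone and 1 called (Amh), while Rhox5, named after its values were seen, had a log2 fold change of -0.36 ± 0.55 (SE, edgeR adjusted p of 0.611), and Cldn11, the most abundant, rose from a mean of 379 to 606 CPM. Leydig markers summed to 336, 193 and 312 CPM in WT against 649, 737 and 389 CPM in the cKO, with 3 of 6 called higher (Hsd3b1, Insl3 and Lhcgr) and Insl3 the most abundant. Of the neutrophil and macrophage markers 5 of the 6 tested were called higher (Cd68, Adgre1, Lyz2, Csf1r and Itgam), with sums of 108, 74.1 and 79.1 CPM in WT and 193, 211 and 157 CPM in cKO. Amh, Hsd3b1, Lhcgr and these macrophage genes other than Lyz2 are named after their values were seen. Endothelial markers, led by Cdh5, summed to 80.0 to 91.5 CPM in WT and 120 to 129 CPM in cKO, and peritubular markers, led by Acta2, to 489 to 643 CPM and 698 to 764 CPM. Erythroid sums, led by Hbb-bs, overlapped between the groups, and the basal and clear cell list was nearly all Itga6, with means of 120 CPM in WT and 214 CPM in cKO. Krt5, Krt14 and Foxi1 of that list were at 0, and the only other gene tested, Trp63, had a log2 fold change of -0.77 ± 0.43 (SE, edgeR adjusted p of 0.156), so that the median was 0.03. Krt5, Krt14 and Trp63 are named after their values were seen. Epididymal principal cell markers summed to at most 2.23 CPM, led by Cd52. The median log2 fold changes were 0.72 for Sertoli, 1.04 for Leydig, 1.03 for neutrophil and macrophage, 0.52 for endothelial and 0.27 for peritubular markers. By edgeR and by DESeq2 0 endothelial, peritubular and erythroid markers were called, with 3, 2 and 0 at an unadjusted edgeR p under 0.05 (9823 of all 16821 genes). The part of any of these cells in the levels of Aqp9, Aqp11, Aqp5 or Aqp2 was not tested.

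**Figure D4:**
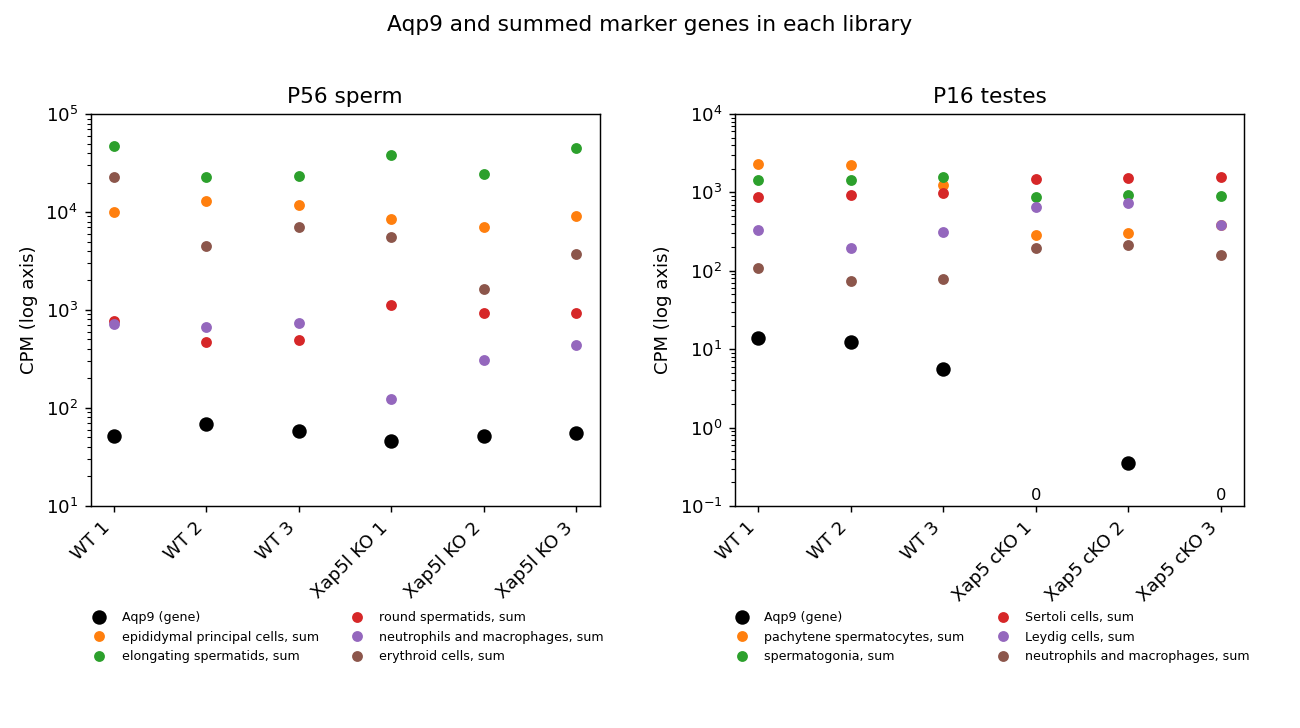
Aqp9 (black) and the summed levels of marker lists (colours) in each library, in CPM on a log axis, for sperm on the left and testes on the right, with 0 written where Aqp9 had no count. In testes Aqp9 was at 5.61 to 13.8 CPM in WT, where pachytene markers summed to 1234 to 2328 CPM, and at 0 to 0.352 CPM in Xap5 cKO, where they summed to 283 to 385 CPM.

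The genes whose profile over the 6 testis libraries was most like that of Aqp9 were Drc7, Kcnj9, Oit1, Abcc12 and Stpg4, in this order, out of 3891 tested genes whose mean log2 CPM lay within 2 of that of Aqp9. Their root mean square difference from Aqp9 in centred log2 CPM was 0.138 for Drc7, which encodes a subunit of the axonemal dynein regulatory complex, and 0.44 to 0.53 for the others. Drc7 had means of 11.7 CPM in WT and 0.108 CPM in cKO, close to those of Aqp9. In sperm the 5 nearest of 6145 genes were Lsm14a, Dars, Rbm6, Jmjd1c and Eif2s3y, with differences of 0.028 to 0.047. The log2 fold changes of these 5 genes lay between -0.29 and -0.22, as that of Aqp9 did, and edgeR's adjusted p was at least 0.314 for each. As the genes were picked for a profile like that of Aqp9, a like fold change follows from the choice, in sperm and in testes. The principal cell markers lay outside this range of levels and were not compared.

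Promoters, from 250 bases before to 50 bases after the start in RefSeq on GRCm38.p6, were taken for 7 of the 8 members and all 4 other aquaporins. Aqp4 was left out of this selection, so its promoter was not searched. They were searched on both strands for the GC-box letters CCCCGCCC (GGGCGGGG on the other strand), the kind of site bound by Sp and Klf factors. The paper names the same letters as common to the motifs of its Xap5 and Xap5l binding peaks. These letters occurred in 17.6% of 32851 promoters of the same length. The letters were present in the promoters of Aqp1 and Aqp5 among the members searched and of Mip among the others. They were absent at both starts of Aqp9 and of Aqp7, and from the promoters of Aqp3, Aqp8 and Aqp11. Aqp5 had the most GC-rich promoter of those searched, with 79.7% GC and 46 CpG, against medians of 52.7% and 7 over all promoters. Aqp9, with 2 starts in RefSeq, had 41.3% GC and 1 CpG at the upstream start and 43.7% GC and 4 CpG at the downstream start. The promoters of the members whose levels differed most between genotypes are shown 5′ to 3′ on the strand of the gene, with the searched letters in capitals. Which start was used in these libraries was not tested, and a match is a description of the letters only.
Aqp9, chr9:71163240-71163539 (minus strand): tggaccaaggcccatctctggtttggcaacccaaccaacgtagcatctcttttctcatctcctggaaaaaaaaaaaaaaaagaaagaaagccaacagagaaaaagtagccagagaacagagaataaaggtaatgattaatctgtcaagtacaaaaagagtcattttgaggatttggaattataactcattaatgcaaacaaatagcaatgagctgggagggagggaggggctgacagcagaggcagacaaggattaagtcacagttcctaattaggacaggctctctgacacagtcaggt
Aqp9, chr9:71162584-71162883 (minus strand): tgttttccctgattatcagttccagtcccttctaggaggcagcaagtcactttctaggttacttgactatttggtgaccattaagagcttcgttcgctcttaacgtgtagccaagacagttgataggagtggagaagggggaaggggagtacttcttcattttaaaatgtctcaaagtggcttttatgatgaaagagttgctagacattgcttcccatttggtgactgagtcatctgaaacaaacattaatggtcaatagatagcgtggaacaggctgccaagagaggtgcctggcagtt
Aqp5, chr15:99590778-99591077 (plus strand): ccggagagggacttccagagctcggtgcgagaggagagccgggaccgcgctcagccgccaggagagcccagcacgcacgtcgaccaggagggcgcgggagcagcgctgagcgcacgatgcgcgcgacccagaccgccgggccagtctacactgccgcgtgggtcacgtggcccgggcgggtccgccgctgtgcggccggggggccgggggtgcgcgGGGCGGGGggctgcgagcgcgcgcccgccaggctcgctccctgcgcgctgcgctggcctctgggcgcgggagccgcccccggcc
Aqp7, chr4:41048087-41048386 (minus strand): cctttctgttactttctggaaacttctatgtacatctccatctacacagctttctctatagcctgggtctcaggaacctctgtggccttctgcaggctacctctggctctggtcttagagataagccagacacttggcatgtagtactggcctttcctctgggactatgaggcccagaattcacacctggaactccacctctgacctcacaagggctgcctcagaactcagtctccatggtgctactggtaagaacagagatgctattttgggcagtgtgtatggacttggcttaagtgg
Aqp11, chr7:97738198-97738497 (minus strand): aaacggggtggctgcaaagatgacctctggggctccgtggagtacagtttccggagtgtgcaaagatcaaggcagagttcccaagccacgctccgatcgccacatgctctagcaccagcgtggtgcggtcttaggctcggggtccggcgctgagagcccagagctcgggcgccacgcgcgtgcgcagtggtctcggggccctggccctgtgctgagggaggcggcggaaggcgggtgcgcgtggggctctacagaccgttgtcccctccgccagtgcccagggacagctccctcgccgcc
The Aqp11 promoter held 68.0% GC and 27 CpG, and the Aqp7 promoter shown, the upstream of 2, held 49.7% GC and 0 CpG. In the annotation Aqp9 overlaps the antisense gene Gm32511 at chr9:71163794-71208124 on the opposite strand and a processed pseudogene, but shares 0 exon bases with either. No member shares exon bases with another gene. Among the other aquaporins, Mip shares 1223 exon bases with the lincRNA gene Gm26847 on the opposite strand. As the use of strand in counting is not known, reads of Gm26847 may be among those of Mip.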

How the data were processed

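Poly(A) RNA of sperm and testes was sequenced by the authors, who per the submitters' notes used FastQC 0.11.2, Trimmomatic 0.36 and HISAT2 2.1.0 on GRCm38. The paper names StringTie for assembly and FPKM as its measure of expression, while the tool that made the counts, its use of strand and its treatment of multimapping reads are not given in the sources used here. The authors deposited raw counts per gene in 2 tables, and each table was tested apart. The deposited counts were filtered with filterByExpr (minimum count 10), TMM-scaled and tested with edgeR 4.0.16 (quasi-likelihood, Benjamini-Hochberg over all genes tested, R 4.3.3), with genotype as the only term and 3 libraries per group. A gene was called at an adjusted p under 0.05 and a fold above 2. DESeq2 1.42.0, other filters, scalings and left-out libraries were alternatives, and the scripts were tested on simulated data. Entries with 93 duplicated names in the sperm table were tested as they stand, and Itgam was left out of its list for this reason. Lengths came from GENCODE vM21. Named genes were the 8 members, the other aquaporins, Fam50a and Fam50b, up to 2 called genes of largest change with a group mean of at least 1 CPM per pathway list and comparison, or else its most abundant gene, the gene with the highest level in each marker list, and the 5 genes most like Aqp9. The members and all lists were chosen with earlier results of these data known. Protein sequences were not used here.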

Additional observations from a re-analysis of the deposited data

How the results depend on the processing

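In sperm the number of genes called ranged from 2 to 2845 when a library was left out (1856 with all), and the number of aquaporins called from 0 to 1. In testes 8936 genes passed by the adjusted p alone (2535 with the fold threshold), and with at least 10 counts required in every library 1 aquaporin was called in place of 2, since Aqp9 was then no longer tested. With a library left out, 2 to 3 aquaporins were called in testes and 2246 to 2839 genes. DESeq2 called 2487 genes in sperm and 2521 in testes. Directions turned, at edgeR adjusted p-values of 0.77 or more, for Aqp3 in sperm without WT replicate 2 (-0.18) or Xap5l KO replicate 2 (-0.033; 0.745 without WT replicate 1), for Aqp1 in sperm without Xap5l KO replicate 1 (-0.066; 1.011 without replicate 3), for Acta2 there (-0.149; 0.48 without replicate 3), and in testes without Xap5 cKO replicate 2 for Cd52 (-0.102; 0.447 without replicate 1) and Hbb-bs (-0.062; 0.602 without replicate 3). The cause was not tested.

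With the replicate block, 1294 genes were called in sperm and 2443 in testes, and 1 and 2 aquaporins. Same-numbered libraries correlated at r of 0.15, -0.02 and -0.08 in sperm, above the limit of 0.1 for replicate 1 only, and at 0.01, -0.01 and -0.01 in testes. Sperm pairs with different numbers ranged from -0.14 to 0.18, the highest being WT replicate 3 with KO replicate 2. Not every library correlated best with its own number, and the block changed no call of an aquaporin. Of 70 values of aquaporins under other settings in sperm 63, and of 59 in testes 56, kept direction and side of the threshold.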
